A study of Mus musculus with 405 samples.

Results

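Bisphenol A and 3 diphenyl compounds of the DDT type were examined in cultured mouse cortical neurons: HPTE, a trichloroethane with a hydroxyphenyl ring on either side that the labels give by its full chemical name, methoxychlor and dicofol. They were taken by name from a transcriptional screen of environmental chemicals and make up 4 of its 297 chemicals, each measured in 1 of 393 libraries. The screen asked which chemicals change gene expression in neurons in similar ways.

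Every library came from primary cortical cultures of embryos taken at embryonic day 15 (as labelled) from C57BL/6J dams crossed to CAST/EiJ males. Each of the 4 compounds was applied once, at 10 μM for 24 h. The reference was 49 cultures that received the solvent dimethylsulphoxide only (vehicle). All cultures, vehicle included, had been fed uridine 5'-triphosphate and 5-fluoro-2′-deoxyuridine to stop dividing cells, and polyadenylated RNA was sequenced. The cultures are neuron-enriched and mixed, so that fewer cells of a type and less RNA per cell cannot be told apart. Nothing in the labels says that the vehicle libraries came from separate culture preparations, so p-values measure the spread between these libraries, which may be technical.

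In a separate count table from the same culture system, 4 vehicle libraries held 2778615 to 7833440 counts. Neuron markers summed to 11990 to 12740 CPM (counts scaled to the same library total) there, astrocyte markers to 992 to 1650 CPM and microglial markers to 43.8 to 66.4 CPM. Oligodendrocyte lineage markers summed to 111.6 to 219.8 CPM, and endothelial and mural markers to 34.55 to 74.30 CPM. In each of the astrocyte, oligodendrocyte lineage and endothelial lists 1 marker had no counts (Gjb6, Mag and Cldn5 in that order). The depth of the screen libraries themselves is unknown, because only normalized values were used. For a gene of the screen the text gives either its value, a log2 deviation from the gene's median over the screen, or its difference, the compound's value minus the mean of the 49 vehicle libraries. Neither is a level.

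Bisphenol A is a plasticizer and a weak ligand of estrogen receptors. HPTE is the demethylated metabolite of the insecticide methoxychlor and binds estrogen receptors more strongly than methoxychlor does. Methoxychlor and the miticide dicofol are relatives of DDT, a class known for holding voltage-gated sodium channels of neurons open. In structure, all 4 have a pair of phenyl rings joined by a single carbon. Bisphenol A and HPTE carry a free hydroxyl group on each ring, methoxychlor a methoxy group on each ring, and dicofol a chlorine on each ring plus a hydroxyl group on the central carbon. Bisphenol A has methyl groups on the central carbon where the other 3 have a trichloromethyl group.

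Dicofol had the most genes called of the 4 compounds when all genes were tested. With Benjamini-Hochberg adjusted p under 0.05 in limma over 13304 genes, bisphenol A lowered 1 gene (0.00752% of genes tested), HPTE 1 gene (0.00752%) and methoxychlor 4 genes (0.0301%), and none of these compounds raised any gene. Dicofol changed 29 genes (0.218%), of which 6 rose (0.0451%) and 23 fell (0.173%). With only the 5121 variably expressed genes tested, the numbers called were 4, 5, 12 and 6, so that methoxychlor had the most. Of the 45 calls over all comparisons, pairs and contrasts included, only 21 were of genes in that smaller set, and 18 of those were kept. At an unadjusted p under 0.05 over all genes the numbers were 422, 514, 854 and 1434 genes in the same order. Each compound had 1 library, so the spread in this test came only from the vehicle libraries and a compound's library was assumed to vary like one of them. In 14 chemicals of the screen with repeated libraries (30 libraries), the median SD between libraries of the same chemical was 0.243 in log2, against 0.254 between vehicle libraries.

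A count that needs no test was also highest for dicofol. Bisphenol A had 355 genes outside the range of the 49 vehicle libraries (2.67%), HPTE 396 (2.98%), methoxychlor 668 (5.02%) and dicofol 945 (7.10%). An untreated library set against the other vehicle libraries would also lie outside their range for some genes. That share was not computed, so these counts alone do not show an effect of a compound. The SD over genes within the library rose in the same order as the counts. It was 0.357 for bisphenol A, 0.380 for HPTE, 0.412 for methoxychlor and 0.447 for dicofol. All lay within the 0.266 to 0.522 of the 49 vehicle libraries (median 0.390). How far this spread within a library sets the order of the counts was not tested. Genes above and below the range were about equally many. Above it were 1.51% of genes for bisphenol A, 1.49% for HPTE, 2.68% for methoxychlor and 3.51% for dicofol, and below it 1.16%, 1.49%, 2.35% and 3.59%. Among 246 chemicals with 1 library at 10 μM, the median number outside the range was 557, from 162 to 2258. More genes lay outside than for bisphenol A in 225 of the other 245 chemicals, than for HPTE in 210, than for methoxychlor in 76 and than for dicofol in 26.

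**Figure D1:**
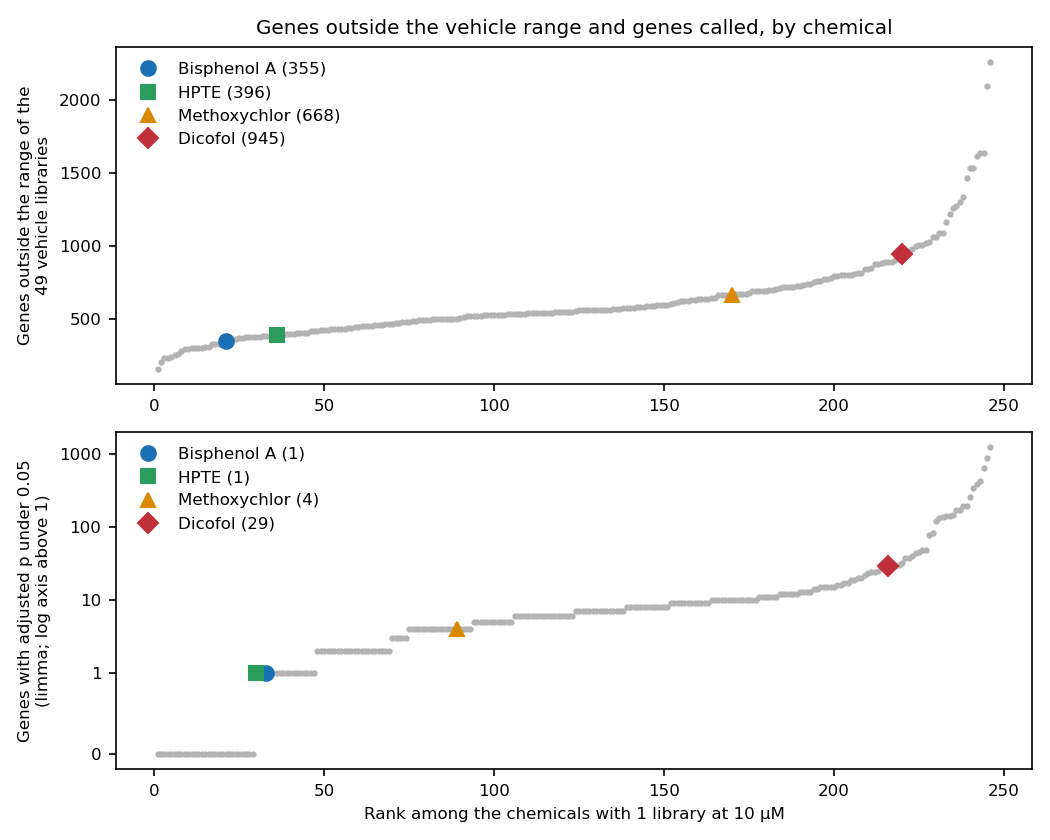
Each grey point is 1 of 246 chemicals with a single library at 10 μM, ranked from left to right by the number of genes outside the range of the 49 vehicle libraries (upper panel) or by the number of genes with adjusted p under 0.05 in limma (lower panel, log axis above 1). Bisphenol A (355 and 1 genes) and HPTE (396 and 1) sit at the low end of both panels, methoxychlor (668 and 4) above the middle of the upper panel only, and dicofol (945 and 29) near the high end of both.

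The single gene lowered by bisphenol A was Rpl37a, a protein of the large ribosomal subunit (mm9 chr1:72757834-72760383, plus strand). Its value was -4.91 after bisphenol A, against a lowest vehicle value of -1.52, a median of 0.14 and a highest value of 0.88. HPTE gave -0.05, methoxychlor 0.44 and dicofol -0.46, all inside the vehicle range. The difference from vehicle was -4.97 ± 0.46 (standard error, limma adjusted p = 1.89e-10), and the next lowest of the 393 libraries, Butralin at 10 μM, was at -1.56. Ribosomal protein genes have near-identical copies elsewhere in the genome, and Rpl37a held 9 to 30 counts (3.95 CPM) in the vehicle libraries of the count table, so its value is uncertain.

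HPTE lowered Gm129, a repressor of the circadian clock also known as Ciart (mm9 chr3:95682426-95686174, minus strand). Its value was -4.37 after HPTE, while the vehicle libraries ran from -3.27 through a median of -0.04 to 1.10. The other 3 compounds lay between -0.08 and 0.23. The difference of -4.26 ± 0.81 passed the test narrowly (limma adjusted p = 0.0414). The call was lost in 15 of the 49 fits that each left out 1 vehicle library. Gm129 held 6 to 18 counts per vehicle library in the count table, and it overlaps C920021L13Rik on the opposite strand, from which an unstranded kit cannot separate it.

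Methoxychlor lowered 4 genes, and for each of them its library was the lowest of all 393. Scamp2, a membrane protein of secretory vesicle traffic (mm9 chr9:57408751-57436604, plus strand), stood at -1.47, against -0.53 to 0.67 in vehicle (median 0.02). HPTE was the other compound below that range, at -0.88, with bisphenol A at -0.03 and dicofol at -0.06. The Scamp2 difference was -1.47 ± 0.26 for methoxychlor (limma adjusted p = 0.0117) and -0.88 for HPTE (adjusted p = 0.601), and the methoxychlor and HPTE libraries did not differ detectably (HPTE minus methoxychlor 0.59, 95% interval -0.15 to 1.32).

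Kcnrg, which encodes a regulator of potassium channel assembly (mm9 chr14:62226319-62230753, plus strand), showed the same arrangement. Its values were -3.39 after methoxychlor and -2.29 after HPTE, both below the vehicle range of -1.72 to 1.09, and 0.72 after bisphenol A and -0.49 after dicofol, both within it. Only the methoxychlor difference was called (-3.47 ± 0.70, limma adjusted p = 0.0286); for HPTE it was -2.37 (adjusted p = 0.578). Kcnrg held 3 to 19 counts per vehicle library.

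Pcp4l1, a small relative of a calmodulin-binding Purkinje cell protein (mm9 chr1:173103393-173126399, minus strand), was at -1.60 after methoxychlor, against -0.72 to 0.89 in vehicle. Its difference was -1.62 ± 0.32 (limma adjusted p = 0.0286), and the other 3 compounds were between -0.09 and 0.04. Acta1, the actin of skeletal muscle (mm9 chr8:126415669-126418651, minus strand), was at -3.70, against -2.13 to 1.30 in vehicle. Its difference was -3.46 ± 0.67 (limma adjusted p = 0.0259), with the other 3 compounds between -0.42 and -0.01. Acta1 is close in sequence to the other actins and held 4 to 21 counts per vehicle library, so that its value is uncertain.

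Dicofol raised Nrsn1, Fosl2, 1700025G04Rik, Pak6, Asph and Atp1b1. Nrsn1, a vesicle membrane protein of neurons, had a value of 1.09 after dicofol, against -0.62 to 0.92 in vehicle (median -0.16), 0.02 after bisphenol A, 0.16 after HPTE and -0.31 after methoxychlor. Its difference was 1.23 ± 0.27 (limma adjusted p = 0.0238), or 2.35-fold. Fosl2, a Fos-family transcription factor that neuronal activity induces (mm9 chr5:32438845-32460204, plus strand), was at 0.97, against -0.55 to 0.83 in vehicle. Its difference was 1.01 ± 0.23 (adjusted p = 0.0275), while the other 3 compounds stayed between 0.00 and 0.09 in value.

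The other 4 rises were smaller. 1700025G04Rik was at 0.76, with a highest vehicle value of 0.36 that HPTE (0.37) also exceeded. Pak6, a p21-activated kinase, was at 0.72 (highest vehicle value 0.45), and Asph, an aspartate beta-hydroxylase, was at 0.58 (0.32). Atp1b1, a subunit of the sodium-potassium pump, was at 0.48 (0.35). The differences of these 4 genes ran from 0.50 for Atp1b1 to 0.76 for 1700025G04Rik, with limma adjusted p from 0.0107 to 0.0240. All 6 genes that rose were well covered in the count table, at 95.7 CPM or more. Dicofol was among the 3 highest of the 393 libraries for 5 of them and ranked 6 for Nrsn1. Fenpropathrin, a pyrethroid insecticide also applied at 10 μM, was above the vehicle range for all 6, with values of 1.96 for Nrsn1, 1.02 for Fosl2 and 0.81 for Atp1b1. Most of these rises were also seen after chemicals of other classes. Niclosamide at 1 μM was above the range for all but Pak6, with Fosl2 at 1.08. Methylene bis(thiocyanate) at 1 μM was above it for all but Pak6 and Atp1b1, and Metiram-zinc at 10 μM for all but Fosl2 and Pak6.

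The largest dicofol fall was that of Ppa2, the mitochondrial inorganic pyrophosphatase (mm9 chr3:132973074-133041199, plus strand). Its value was -4.60 after dicofol, against -1.995 to 0.88 in vehicle (median -0.13). Methoxychlor gave -1.06, bisphenol A 0.28 and HPTE 0.35. The difference was -4.35 ± 0.69 (limma adjusted p = 9.8e-04). Other single libraries of the screen came close to it, the nearest being Bensulide at 10 μM with a Ppa2 value of -4.23.

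Trib3, a pseudokinase gene of the amino acid and endoplasmic reticulum stress response (mm9 chr2:152163158-152169768, minus strand), was at -3.44 after dicofol and between 0.10 and 0.44 after the other 3 compounds, against -1.41 to 1.03 in vehicle. Its difference was -3.19 ± 0.56 (limma adjusted p = 0.00237). Rab26, a small GTPase of secretory vesicles (mm9 chr17:24664740-24670692, minus strand), was at -3.57, against -1.99 to 0.79 in vehicle. Bisphenol A, at 0.83, lay just above the highest vehicle library for Rab26, while HPTE (-0.64) and methoxychlor (-0.89) lay within the range. The Rab26 difference for dicofol was -3.35 ± 0.61 (adjusted p = 0.00467).

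Read support was low for Trib3 (9 to 22 counts per vehicle library of the count table) and Rab26 (3 to 12 counts), and Tebupirimfos at 10 μM had a lower Rab26 value (-4.41) than dicofol.

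The 3 other falls of more than 2 in log2 are uncertain as well. 1810022K09Rik (difference -3.48) held 2 to 4 counts per vehicle library, and dicofol ranked only 9 from the bottom of the 393 libraries. Zfp85os (-2.46) is an antisense transcript, which cannot be told from its partner without strand. Nup62-il4i1 (-2.29) is a read-through transcript whose exons are shared with its component genes.

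The remaining 17 falls under dicofol were moderate and fell outside the rule for named genes, so the examples were chosen after their values were seen. Their differences ran from -1.65 for Rcl1, a factor of ribosomal RNA processing, to -0.36 for Ppp2r2c, a regulatory subunit of protein phosphatase 2A. Deptor, an inhibitor of the mTOR kinase, fell by 1.23 on the log2 scale, and Kremen1, a receptor for Dickkopf inhibitors of Wnt signalling, fell by 1.17. Sdhaf1, an assembly factor of succinate dehydrogenase, fell by 1.08, a call that was lost in 25 of the 49 fits without 1 vehicle library. Dicofol was the lowest of all 393 libraries for 16 of the 23 genes that fell, and 8 of the 23 were under 10 CPM in the vehicle cultures.

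The genes called for dicofol were mostly within the vehicle range after the other compounds: 25 of the 29 after bisphenol A, 26 after HPTE and 27 after methoxychlor. All 4 comparisons share the same 49 vehicle libraries.

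**Figure D2:**
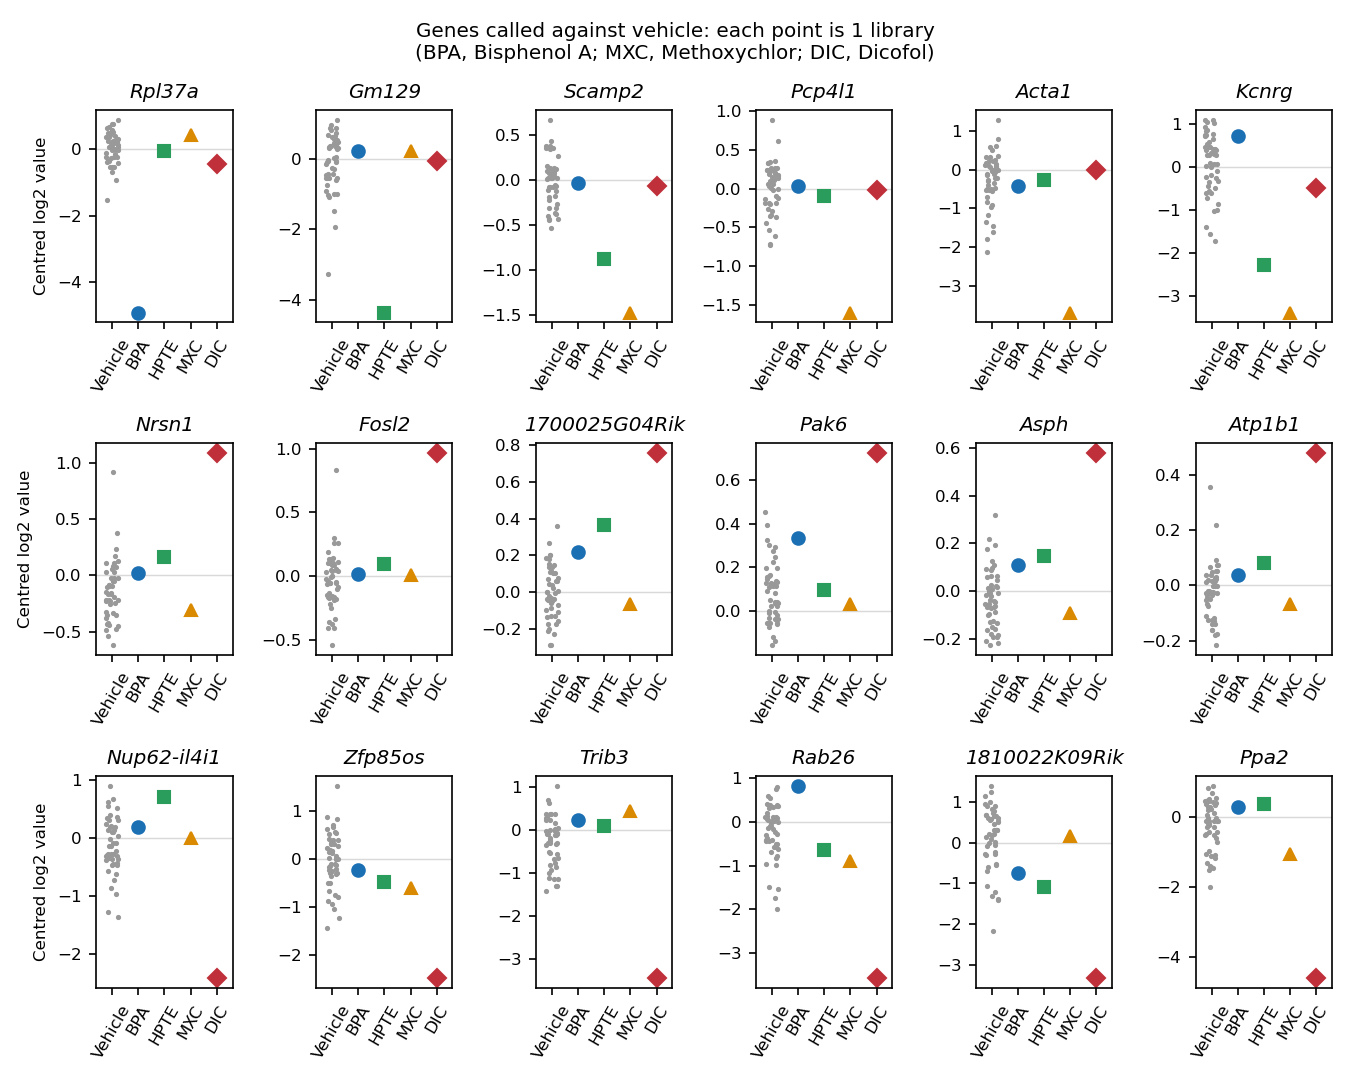
Each panel is 1 gene, with its centred log2 value on the vertical axis; grey points are the 49 vehicle libraries and coloured symbols the single library of each compound. Rpl37a is low after bisphenol A, Gm129 after HPTE and the other 4 genes of the top row after methoxychlor, with HPTE also low for Scamp2 and Kcnrg. The middle and bottom rows show genes raised or lowered by dicofol, which lies outside the vehicle points in all 12 panels.

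One vehicle library bore strongly on the dicofol result. Vehicle library 39 (the number only names it) stood apart in activity-regulated genes, which neurons transcribe when they fire: its median difference over 37 such genes was 0.95, whereas the other 48 vehicle libraries, set against their own mean, lay between -0.47 and 0.35. It was the highest vehicle library for 21 of the 37. Leaving it out raised the number of genes called for dicofol from 29 to 130 (0.977%; 57 higher and 73 lower), a set that contained all 29. Library 39 was the highest vehicle library for 48 of those 57 rises. Leaving out vehicle library 15 gave 50 genes, and each of the other 47 removals gave fewer. This alternative was chosen after the data were seen.

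Dicofol had the highest median of the 4 compounds over the 37 activity-regulated genes, at 0.61, against 0.05 for bisphenol A, -0.06 for HPTE and -0.12 for methoxychlor, where the median of all 13304 genes was 0.01 for each. Only 1 vehicle library, number 39, was higher. With all 49 vehicle libraries, 1 of the 37 genes was called, Fosl2, which was higher, where 0.0451% of all genes were called higher. Above the vehicle range were 6 of the 37, against 3.51% of all genes: Fosl2, Egr1, Nr4a1, Nr4a3, Dusp6 and Crh. Jun, a partner of Fos proteins, was below it.

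Nr4a1, an immediate early nuclear receptor, illustrates the spread. Its difference after dicofol was 1.74 ± 0.47, against -0.99 to 1.48 over the vehicle libraries, where 1.48 is library 39 and the next highest is 0.66 (limma adjusted p = 0.0838). The other compounds gave 0.19 (bisphenol A), 0.07 (HPTE) and -0.32 (methoxychlor). Fos, the founding immediate early gene, was at 2.23 after dicofol, between 2.48 in library 39 and 0.83 in the next highest vehicle library. Bdnf, a neurotrophin, was at 1.98, between 2.37 in library 39 and 0.52 in the next.

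Without library 39, dicofol lay above the remaining 48 vehicle libraries for 19 of the 37 genes, and 8 were called higher, against 0.428% of all genes called higher in that fit: Fos (2.29), Bdnf (2.03), Nr4a1 (1.77), the neuropeptide precursor Vgf (1.59), Nr4a3 (1.48), the signalling regulator Rgs2 (1.19), Fosl2 (1.02) and the secretogranin Scg2 (0.94). None was called lower. Library 39 was singled out by these same 37 genes, and for 21 of them leaving it out lowered the highest vehicle value. The larger counts therefore follow in part from that choice and are not separate evidence. The same removal left the calls for HPTE and methoxychlor at 1 and 4, and added Popdc3 (-2.50) to Rpl37a for bisphenol A.

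Methoxychlor lay on the other side for Egr1, an immediate early transcription factor. The Egr1 difference was -1.16 ± 0.29 after methoxychlor, below all vehicle libraries (-0.66 to 0.61), and 0.64 ± 0.29 after dicofol, above all of them. Neither was called (limma adjusted p = 0.118 and 0.395), nor was the difference between the 2 compounds (methoxychlor minus dicofol -1.80, 95% interval -2.60 to -0.995, adjusted p = 0.116 over the 6 pairs).

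**Figure D3:**
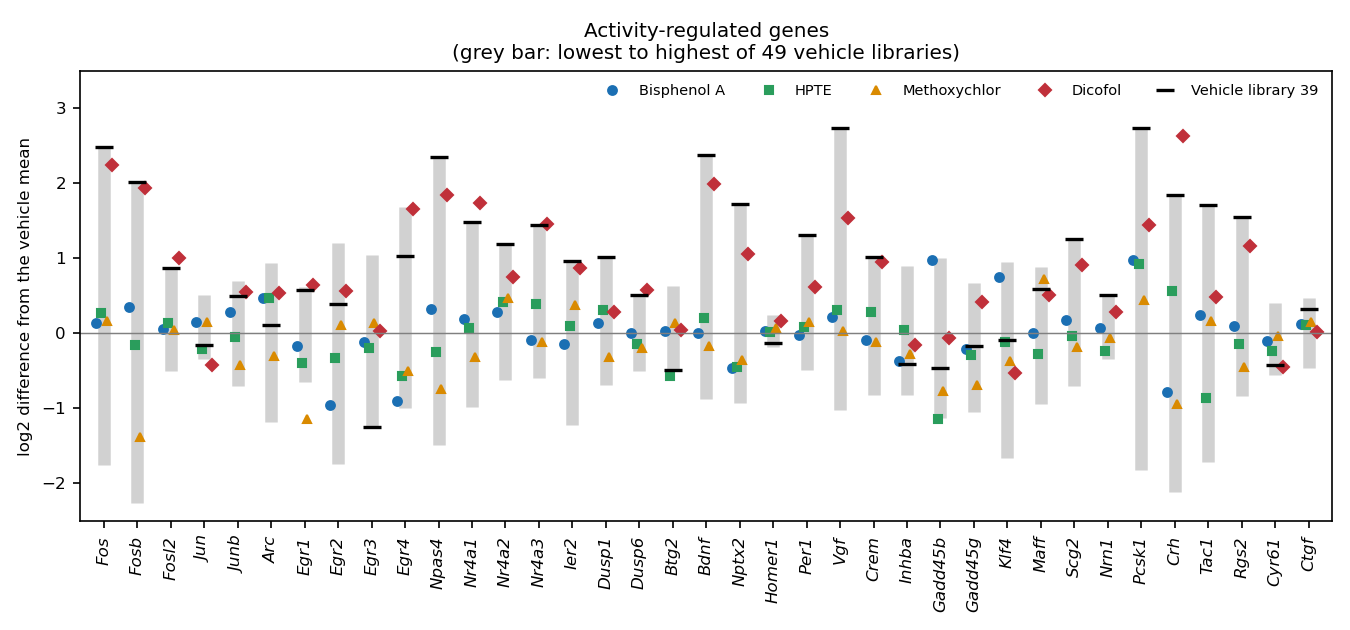
Log2 difference from the vehicle mean for 37 activity-regulated genes; the grey bar spans the 49 vehicle libraries, the black dash is vehicle library 39 and symbols are the single libraries of the 4 compounds. Dicofol is above the bar for 6 genes, and for many of the rest it lies between the black dash and the other vehicle libraries; methoxychlor is below the bar for Egr1.

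Estrogen receptors were sparsely expressed in these cultures and did not change detectably. In the vehicle libraries of the count table Esr1, the alpha receptor, had 4 to 11 counts (1.503 ± 0.228 CPM, SD, n = 4), Esr2, the beta receptor, 0 to 1 counts and the membrane receptor gene Gper1 3 to 7 counts. The screen table holds 5 of the receptor genes listed; Esr2 and Gper1 were not analysed there. No receptor gene was called for any compound or pair, and the smallest adjusted p over the 6 pairs was 0.787, for Esrra.

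The Esr1 difference was 0.06 after bisphenol A, -0.24 after HPTE, 0.62 after methoxychlor and 0.28 after dicofol, all within the vehicle range of -1.31 to 1.30. Esrra, an estrogen-related orphan receptor that controls energy metabolism, was better covered (31.2 ± 8.19 CPM, SD, n = 4). Its differences were -0.40, -0.10, 0.27 and 0.40 in the same order, and dicofol lay just above the highest vehicle library (0.38). Esrrb ranged from -0.16 to 0.34 over the 4 compounds and Esrrg from -0.17 to 0.51. Pgr, the progesterone receptor and a classical estrogen target, ranged from -0.07 to 0.19. To either side, the pair intervals were 0.64 wide for Pgr, 0.68 for Esrra, 1.04 for Esrrg, 1.465 for Esr1 and 1.79 for Esrrb. Pair differences within those sizes could not be told from 0. Against vehicle, the 95% interval of Esr1 after bisphenol A ran from -0.99 to 1.11.

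Of 24 estrogen-responsive genes listed, 18 were measured and none was called. Their medians were 0.10 (bisphenol A), 0.02 (HPTE), 0.13 (methoxychlor) and 0.11 (dicofol), within the vehicle range of -0.19 to 0.13. The median was above that of 46 of the 49 vehicle libraries after bisphenol A, 26 after HPTE, 48 after methoxychlor and 47 after dicofol. No member was outside the range after bisphenol A or HPTE. Cxcl12, a chemokine gene, was at 0.69 after dicofol (highest vehicle library 0.52) and Adora1, the adenosine A1 receptor gene, at 0.41 (0.30). Igf1, a growth factor gene, was at -0.34 after methoxychlor, at the level of the lowest vehicle library.

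All 11 thyroid hormone-responsive genes listed were measured, and none was called for a single compound. Their medians were 0.28 (bisphenol A), 0.08 (HPTE), -0.20 (methoxychlor) and 0.18 (dicofol), within the vehicle range of -0.39 to 0.36. Vehicle libraries with a lower median numbered 48 for bisphenol A, 33 for HPTE, 2 for methoxychlor and 46 for dicofol. Those with a higher median numbered 1, 16, 47 and 3 in the same order. Genes above the vehicle mean numbered 10, 7, 5 and 7 of the 11, where 6850, 6883, 6836 and 6844 of all 13304 genes were. Neither this list nor the estrogen-responsive list was split by the direction in which the hormone moves a gene. Their medians alone therefore do not measure a hormone response. Dio2, the deiodinase that makes active thyroid hormone (mm9 chr12:91962994-91976878, minus strand), was above the vehicle mean for each compound: 0.70 for bisphenol A, 0.38 for HPTE, 0.51 for methoxychlor and 1.07 for dicofol, where the vehicle libraries ran from -0.51 to 0.66. The dicofol difference had a limma adjusted p of 0.0982. Hr, a corepressor of thyroid hormone receptors, was at -1.19 after HPTE, below the lowest vehicle library (-0.70), and between -0.27 and 0.30 after the other 3.

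**Figure D4:**
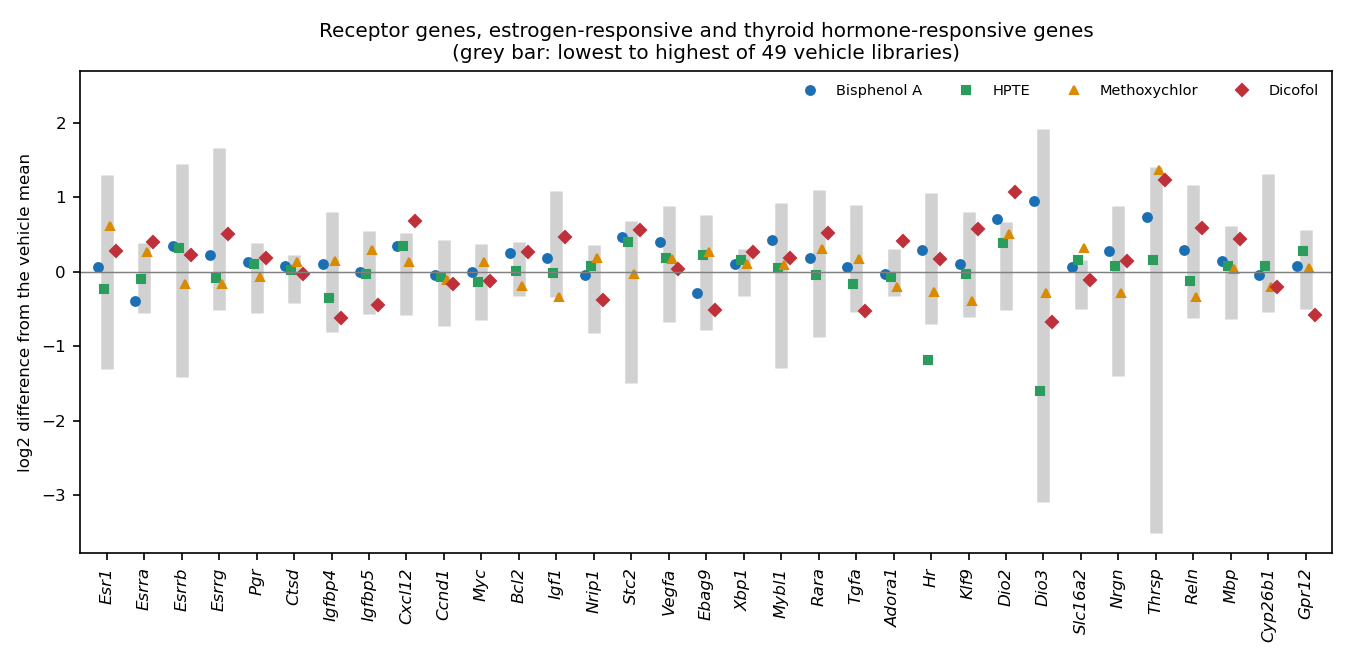
Log2 difference from the vehicle mean for the receptor genes and for estrogen-responsive and thyroid hormone-responsive genes; the grey bar spans the 49 vehicle libraries and symbols are the single libraries of the 4 compounds. Most symbols lie inside the bars; those outside include Dio2 (dicofol 1.07, bisphenol A 0.70), Hr (HPTE -1.19), Cxcl12 (dicofol 0.69) and Adora1 (dicofol 0.41).

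Genes of voltage-gated sodium channels, the known target of DDT-type insecticides, showed no called change. All medians of the 11 sodium channel genes lay between -0.08 (methoxychlor) and 0.06 (bisphenol A), within the vehicle range of -0.24 to 0.21. After methoxychlor, Scn2b, a channel beta subunit, was at -0.43 (lowest vehicle library -0.36), and Scn9a, an alpha subunit, was at -1.29 (-1.27). No sodium channel gene was outside the range after the other 3 compounds, and none of the 27 potassium channel or 15 calcium channel genes was called.

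Genes of GABA-A receptors, the inhibitory chloride channels, had a median of 0.26 after dicofol, above 48 of the 49 vehicle libraries, and -0.06 after methoxychlor. The subunit genes Gabra5 (0.72), Gabra4 (0.70) and Gabrb1 (0.76) were above the vehicle range after dicofol, and Gabrg3 (-2.21) and Gabrd (-1.34) were below it after methoxychlor. None of the 12 was called with all vehicle libraries. Without library 39, Gabra5 was called for dicofol. Of 21 glutamate receptor genes, Grm2 was above the range after dicofol (0.73), and none was called with all vehicle libraries.

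Genes of cholesterol synthesis were not called either. Mvk, mevalonate kinase (mm9 chr5:114894278-114910600, plus strand), was below the lowest vehicle library (-0.61) after HPTE (-0.67), methoxychlor (-0.70) and dicofol (-1.07). After bisphenol A it was at -0.12. The contrast of the 3 compounds with a trichloromethyl group against bisphenol A did not call Mvk. The difference of dicofol had a limma adjusted p of 0.0974, and bisphenol A minus dicofol was 0.95 (95% interval 0.11 to 1.79, adjusted p = 0.814 over the 6 pairs). Nsdhl (-0.81) and Acat2 (-0.55), further enzymes of the pathway, were below the range after dicofol only. Over the 24 genes the medians were 0.18 (bisphenol A), -0.11 (HPTE), 0.03 (methoxychlor) and -0.03 (dicofol), all within the vehicle range.

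With all vehicle libraries, few single stress and detoxification genes departed from the vehicle range. Of 34 genes of the amino acid and endoplasmic reticulum stress response, Trib3 was the single call, lower after dicofol, where 0.173% of all genes were called lower. The list median for dicofol was 0.18, higher than in 48 vehicle libraries and lower than in 1. Above the vehicle mean were 28 of the 34 genes, against 6844 of all 13304. Without the vehicle library that stood apart in activity-regulated genes, an alternative chosen after the data were seen, the dicofol median was 0.19. That exceeded the highest of the remaining vehicle medians (0.14), while the other compounds stayed within their range. No further gene of the list was called in that fit. Phgdh, the first enzyme of serine synthesis, was at -2.78 after methoxychlor (lowest vehicle library -2.15), and held 3 to 13 counts per vehicle library in the count table. Cyp1a1, the classical target of the aryl hydrocarbon receptor, was at 1.78 after HPTE (highest vehicle library 1.76; limma adjusted p = 1.00), with 3 to 6 counts per vehicle library. The 14 genes of its list had a median of -0.30 after HPTE, lower than in 47 of the 49 vehicle libraries and within their range. Above the vehicle mean were 2 of the 14, against 6883 of all 13304 genes. Mt2, a metallothionein gene, was at -1.08 after dicofol (lowest vehicle library -0.65). None of 24 Nrf2 antioxidant or 15 heat shock genes was called.

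Contractile and actin-binding genes had low medians after dicofol (-0.40) and HPTE (-0.29), and 17 of the 20 and 19 of the 20 lay below the vehicle mean, with none called. Over all 13304 genes, 6844 lay above the vehicle mean after dicofol and 6883 after HPTE. Tpm1 (-0.34), Flna (-0.56) and Myh9 (-0.69) were below the vehicle range after dicofol, and Vcl (-0.57) after HPTE. Endothelial and mural markers, whose vessel cells express several of these genes, had a median of -0.42 after dicofol and -0.01 after HPTE, within the vehicle range of -0.61 to 0.68; their part in the result was not tested. Medians of the neuron, interneuron, astrocyte, microglia and oligodendrocyte lineage markers lay between -0.19 and 0.20 for the 4 compounds, each within its vehicle range.

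**Figure D5:**
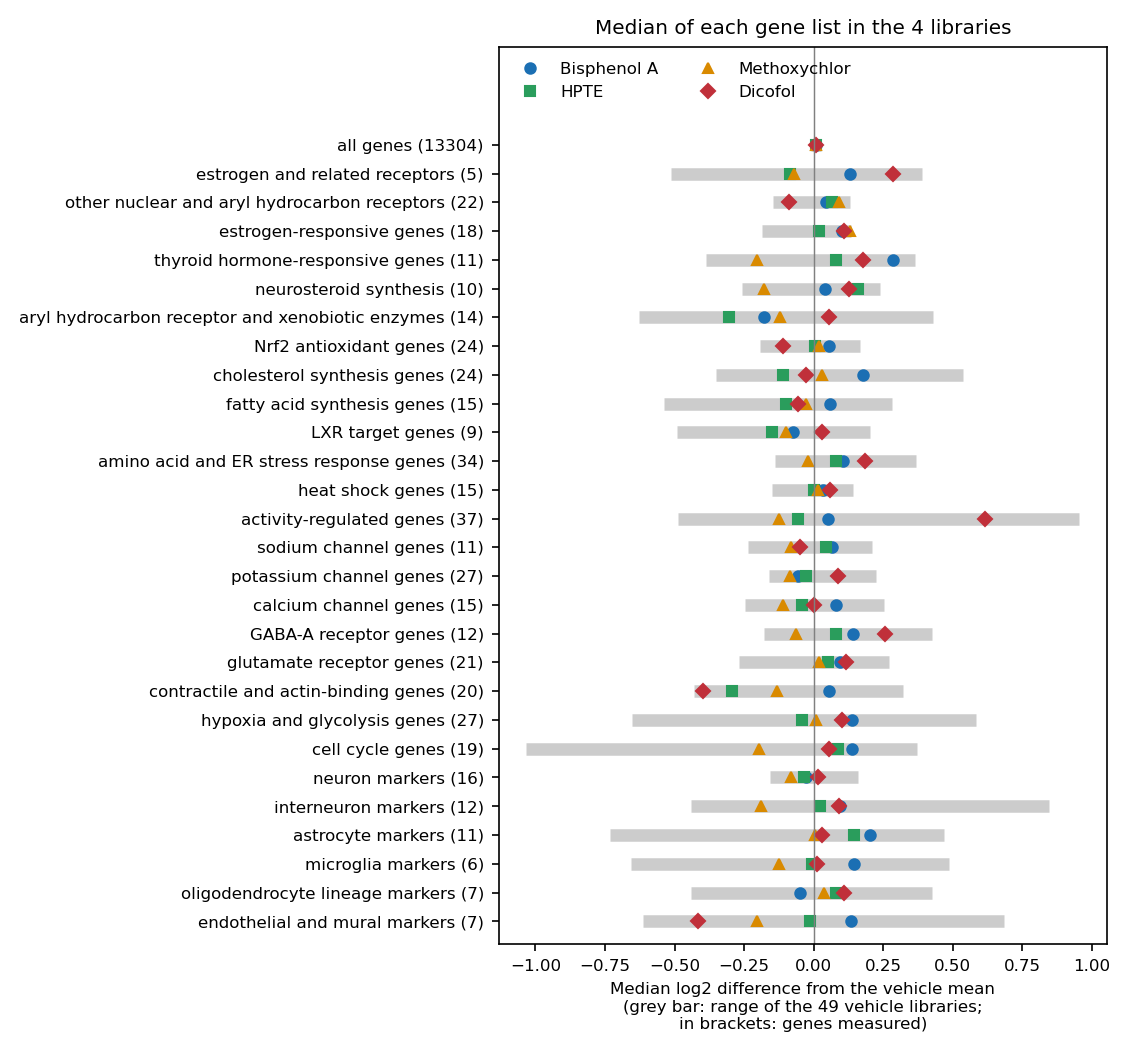
Median log2 difference from the vehicle mean for each gene list, with the number of genes measured in brackets; the grey bar spans the same median in the 49 vehicle libraries. All medians of the 4 compounds lie within the bars. Dicofol stands near the low end for contractile genes (-0.40), and methoxychlor near the high end for estrogen-responsive genes (0.13). Only 1 vehicle library was higher than dicofol for the activity-regulated (0.61), GABA-A receptor (0.26) and amino acid and ER stress response genes (0.18). The same held for bisphenol A in the thyroid hormone-responsive genes (0.28).

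Because dose and time were the same, the compounds could be compared directly in 6 pairs, with p-values adjusted over all genes and pairs together. Bisphenol A differed from HPTE, from methoxychlor and from dicofol in Rpl37a, with differences of -4.86, -5.35 and -4.45, and these calls rest on the low Rpl37a value of bisphenol A described above. That was the only gene called between bisphenol A and HPTE (0.00752%) and between bisphenol A and methoxychlor (0.00752%). Bisphenol A and dicofol also differed in Rab26 (2 genes in all, 0.0150%), by 4.399 (limma adjusted p = 0.0477), a call lost in 31 of the 49 fits without 1 vehicle library.

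HPTE and methoxychlor, which differ only in the methyl group on each ring oxygen, had no gene called between them (limma, smallest adjusted p = 0.155; 577 genes at an unadjusted p under 0.05). This does not show that they act alike: the 95% interval of the difference lay within 1 log2 unit of 0 for 6897 of the 13304 genes (51.8%) and reached further for the other 6407. HPTE and dicofol differed in Ppa2 (0.00752%), by 4.96 (adjusted p = 0.0477), which was lost in 30 of the 49 fits without 1 vehicle library.

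Methoxychlor and dicofol differed most in number, in 3 genes (0.0225%), and in each gene the 2 compounds lay outside the vehicle range on opposite sides. Hrk, a pro-apoptotic relative of Bcl2 (mm9 chr5:118619773-118639487, plus strand), had a value of 0.72 after methoxychlor and -0.95 after dicofol, with vehicle libraries from -0.61 to 0.37, 0.29 after bisphenol A and 0.10 after HPTE. The difference was 1.67 (95% interval 1.12 to 2.22, limma adjusted p = 0.00327). Trpv6, an epithelial calcium channel (mm9 chr6:41570620-41586404, minus strand), was at -0.77 after methoxychlor and 0.98 after dicofol, with vehicle libraries from -0.44 to 0.69. Its difference was -1.75 (95% interval -2.36 to -1.13, adjusted p = 0.00962). Serinc5, a multipass membrane protein, was at 0.40 after methoxychlor and -0.82 after dicofol, against -0.53 to 0.31 in vehicle, a difference of 1.22 (adjusted p = 0.0477) that was lost in 32 of the 49 fits without 1 vehicle library.

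The 2 structural contrasts added no gene beyond Rpl37a. Compounds with free hydroxyphenyl groups minus those without gave -2.47 for Rpl37a (0.00752% of genes, limma adjusted p = 0.0261), and the 3 compounds with a trichloromethyl group minus bisphenol A gave 4.89 (0.00752%, adjusted p = 3.03e-08). Both rest on the single bisphenol A library: HPTE, which also has free hydroxyphenyl groups, had an Rpl37a value of -0.05. Without the bisphenol A library the hydroxyphenyl contrast called 0 genes, without the dicofol library 0 and without the methoxychlor library 6.

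With the 4 compounds taken as 1 group of 4 libraries, no gene was called (limma, smallest adjusted p = 0.195; 942 genes at an unadjusted p under 0.05). No gene lay outside the vehicle range on the same side for all 4, and 9 did so for 3 of them. The genes with the smallest p, given after their values were seen, included Lypla1, a depalmitoylating enzyme, with differences of -0.34, -0.57, -0.46 and -0.55 for bisphenol A, HPTE, methoxychlor and dicofol (mean -0.48 ± 0.10). Dio2 (mean 0.67 ± 0.15, adjusted p = 0.234) and Mvk (-0.64 ± 0.16, adjusted p = 0.291) were among them too.

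Profiles of the 4 compounds were barely alike by the rank correlation over 5121 variably expressed genes, given as a description over genes that are not independent. The correlation was 0.03 for bisphenol A and HPTE, 0.01 for bisphenol A and methoxychlor and 0.05 for bisphenol A and dicofol. It was 0.01 for HPTE and methoxychlor, 0.06 for HPTE and dicofol and -0.04 for methoxychlor and dicofol. Of all pairs in the screen, 5.94% were higher than HPTE and dicofol and 9.24% higher than bisphenol A and dicofol. The median over all 43956 pairs of chemicals in the screen was 0.01 and the 95th percentile 0.07, and no pair of the 4 compounds exceeded that percentile. The chemical nearest to dicofol was Fenpropathrin at 10 μM (0.19), followed by Methylene bis(thiocyanate) at 1 μM (0.17), a different dose. Methomyl was nearest to bisphenol A (0.09), Bensulide to methoxychlor (0.09) and dicofol to HPTE (0.06).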

How the data were processed

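For the screen the authors aligned reads to mm9 with TopHat, counted them over RefSeq gene models joined by symbol, computed RPKM, filtered genes, and deposited log10 values that had been quantile normalized and expressed relative to each gene's median, with culture and sequencing batch effects taken out by a mixed model. Levels, depth and batches can therefore not be examined in them. The deposited counts of a second experiment were not normalized, and only their 4 vehicle columns were used, as CPM of the library total; 4 other columns were not used.

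The log10 values were converted to log2 and fitted in R 4.3.3 with limma 3.58.1, with vehicle and the 4 compounds as 5 groups and no variance trend. Tests were two-sided, with Benjamini-Hochberg adjustment over 13304 genes (over genes and 6 pairs together for pairs) and a threshold of 0.05. The residual spread came from the 49 vehicle libraries. The procedure was tested on simulated data. Counting error is not covered, since no counts were available for the screen. Groups came from the sample titles.

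Named genes were the 6 largest rises and 6 largest falls among genes called and outside the vehicle range for each compound, the 3 largest called differences in each direction per pair and structural contrast, the receptor genes, and called list members. The compounds, gene lists and alternatives were chosen with earlier results of these data known. List members that were not called, and genes near the threshold, were named after their values were seen. Positions are from the GENCODE annotation of mm9, not the RefSeq models of the authors.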

Additional observations from a re-analysis of the deposited data

How the results depend on the processing

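Each compound rests on 1 library, which limits every comparison, and no call changed sign under any alternative. Centring each library on its median, a filter at 1 CPM and a robust prior variance kept every call they tested. Pooling the spread with that of replicated chemicals gave 3 genes for bisphenol A, 3 for HPTE, 7 for methoxychlor and 55 for dicofol, 2 for bisphenol A minus HPTE, 1 for HPTE minus methoxychlor and 2 for the hydroxyphenyl contrast. A variance trend on the mean of the deposited values gave 1 gene for bisphenol A minus dicofol and 0 for HPTE minus dicofol, and a trend on vehicle CPM gave 11 for methoxychlor, 66 for dicofol and 7 for methoxychlor minus dicofol. With only the 5121 variable genes tested, the counts for bisphenol A, HPTE, methoxychlor and dicofol were 4, 5, 12 and 6. At a threshold of 0.01 they were 1, 0, 0 and 5, with 1 for bisphenol A minus dicofol, 0 for HPTE minus dicofol and 0 for the hydroxyphenyl contrast. Against all other chemicals instead of vehicle, bisphenol A had 2, HPTE 5 and dicofol 47. Adjusting over the 4 compounds together gave 3, 3 and 14 for bisphenol A, HPTE and dicofol, and 20 of 35 calls were kept. By size alone (outside the vehicle range and at least 1 in log2, with no test), the counts were 82, 117, 187 and 205. Apart from the smaller set of genes or stricter threshold that some settings impose, the cause of these shifts was not tested.

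Leaving out 1 compound at a time gave 0 to 6 genes for the hydroxyphenyl contrast (0 without bisphenol A or dicofol, 6 without methoxychlor) and 0 to 1 for the 4 compounds together (1 without HPTE). Without vehicle library 39, bisphenol A had 2 genes, dicofol 130 and methoxychlor minus dicofol 6. Over the 49 removals of a vehicle library the counts ran from 1 to 3 for bisphenol A (3 without library 2), 0 to 3 for HPTE (3 without library 27), 4 to 9 for methoxychlor (9 without library 26) and 27 to 130 for dicofol. No paired analysis was possible because each compound has 1 library and the replicate numbers only name libraries, so that no 2 pairs could be formed.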
